A study of Mus musculus with 7 samples.

Results

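The transcripts examined here encode ASH2L and 9 other non-catalytic subunits of the COMPASS family of histone H3 lysine 4 (H3K4) methyltransferase complexes in mouse oocytes. They were taken from the deposited table by name, as the rows called Ash2l, Wdr5, Rbbp5, Dpy30, Cxxc1, Wdr82, Hcfc1, Men1, Paxip1 and Ncoa6 on the strand of the named gene. Each name had 1 such row, so the set holds 10 of the 33437 oocyte transcripts in the table. Single-cell RNA-seq was done on oocytes at the germinal vesicle (GV) stage, fully grown and arrested before meiotic maturation, from 21-day-old mice, given as C57BL6 in the labels and as a C57BL/6OlaHsd background in the methods of the study. The labels give every female as floxed/floxed for Setd1b. The 4 Setd1b cKO oocytes came from females positive for Gdf9-Cre, a recombinase active in oocytes from early follicle growth onwards. The 3 Setd1b WT oocytes came from females that the labels give as Gdf9-Cre negative, whereas the study's methods also count heterozygous females with Cre as WT. Each library held 1 oocyte. Since the mothers of the oocytes are not identified in the labels, the p-values measure the spread between oocytes only.

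COMPASS complexes place methyl groups on H3K4, a mark found at promoters and, in oocytes, also in broad domains outside them. Every complex holds 1 catalytic subunit, SETD1A, SETD1B or an MLL (KMT2) protein, on a shared core of WDR5, RBBP5, ASH2L and DPY30. The core stimulates the catalytic subunit, and ASH2L with RBBP5 makes most of this contact. The other subunits decide where a complex works: CXXC1 (CFP1) binds unmethylated CpG sites, WDR82 binds the transcribing RNA polymerase, menin (Men1) tethers MLL1 and MLL2, and PTIP (Paxip1) and NCOA6 belong to MLL3 and MLL4. The question asked of the data was whether the transcripts of these partners differ when the oocyte lacks SETD1B.

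Values are in RPM, reads scaled to the mapped reads of a library. Libraries held 8582493 to 12972366 mapped reads, so that 1 read was worth 0.0771 to 0.117 RPM and a count of 0 allows a level of up to 0.231 to 0.350 RPM (3 reads, counting error alone). RPM is a share of the reads and not an amount per oocyte. Reads outside the transcript set took 13.2% to 16.4% of the Setd1b cKO libraries and 9.57% to 9.90% of the WT libraries. The targeted gene, Setd1b, was at 2.68 to 16.7 RPM in the Setd1b cKO and 8.61 to 17.7 RPM in the WT. This row was matched by position, and another transcript at its locus reached 12.9 RPM. The row also counts exons outside the floxed segment, so it does not check the deletion. Setd1b cKO replicate 4 and WT replicate 3 stood apart from the other libraries in the same way. Against their genotype means, mRNAs under 1 kb were higher in both by a median log2 difference of 0.49 and 0.43, and mRNAs over 5 kb were lower by medians of -0.18 and -0.15, while the other 5 libraries ran from -0.36 to 0.09 for the short mRNAs. All 13 oocyte markers were present at 13.6 RPM or more in every library, and their sum was lower in the Setd1b cKO, at 21455 to 22578 RPM against 25848 to 27188 RPM. The mean was lower in the Setd1b cKO for 11 of the 13 oocyte markers and higher for 2. Of the 13 oocyte markers 1, Mos, passed the threshold described below and was lower (log2 fold change -1.34, limma adjusted p = 0.00581). Of 13 granulosa cell markers, 5 stayed under 1 RPM in every library, and Amh and Foxl2, which define that cell type, reached at most 0.174 and 0.165 RPM. The mean was higher in the Setd1b cKO for 11 of the 13 and lower for 2. Inha stood at 7.03, 11.4, 13.2 and 0.583 RPM in replicates 1 to 4 of the Setd1b cKO and at 0.810, 4.32 and 0 RPM in the WT, Hsd17b1 reached 2.06 RPM against 0.486 RPM, and Nr5a2 was at 32.5 to 50.8 RPM against 27.4 to 28.3 RPM without overlap. Cyp19a1 overlapped, at 19.5 to 30.6 RPM against 17.1 to 27.3 RPM, Fshr reached 5.15 RPM against 2.92 RPM and Gja1 5.14 RPM against 2.31 RPM, and the 2 with a lower mean in the Setd1b cKO were Kitl (5.08 against 5.603 RPM) and Cyp11a1 (0.368 against 0.739 RPM). None of the 6 granulosa markers tested passed the threshold in limma (Inha unadjusted p = 0.0477, adjusted p = 0.225). The summed granulosa list was 77.3 to 90.2 RPM in the Setd1b cKO and 50.5 to 71.0 RPM in the WT. The part of either marker list in the differences below was not tested.

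Ash2l is the transcript on which the results turn, and its oocyte form was first placed on the annotation. In the table Ash2l (ENSMUSG00000031575) ran over chr8:25816191-25847696 on the minus strand of GRCm38. Its 5′ end lay 2 bases from the start of an annotated protein-coding isoform with 16 exons. The start of the principal isoform of GENCODE M21 lay 6909 bases downstream of the oocyte 5′ end. The isoforms share a coding end but not a coding start. In the principal isoform translation starts in its first exon, chr8:25840582-25840787. The isoform that starts at the oocyte 5′ end lacks that exon and starts translation in its exon 3, so that it leaves out 267 coding bases, or 89 codons, of the 1869 coding bases of the principal isoform. The 176 coding bases of the principal isoform's first exon (chr8:25840582-25840757, minus strand) and the first 119 coding bases of the other isoform (chr8:25839743-25839861, minus strand) are shown to place the start of translation in each. The 176 bases are coding in the principal isoform alone, and the 119 bases are coding in both, lying further downstream in the principal isoform. Both are from GENCODE M21, 5′ to 3′, with the start codon in capitals.
Ash2l, principal isoform: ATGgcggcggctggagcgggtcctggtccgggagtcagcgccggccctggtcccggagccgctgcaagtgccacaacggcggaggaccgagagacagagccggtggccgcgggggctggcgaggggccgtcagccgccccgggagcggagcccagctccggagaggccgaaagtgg
Ash2l, isoform starting at the oocyte 5′ end: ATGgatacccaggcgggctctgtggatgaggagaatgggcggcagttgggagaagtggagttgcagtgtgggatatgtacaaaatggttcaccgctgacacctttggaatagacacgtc
The isoforms of each gene were merged before deposit, so the Ash2l values below cover both, and which coding start was used was not measured.

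Ash2l was higher in the Setd1b cKO in every library. It stood at 39.4, 44.9, 49.1 and 33.8 RPM in replicates 1 to 4 of the Setd1b cKO (398, 545, 564 and 290 reads). Replicates 1 to 3 of the Setd1b WT were at 13.9, 19.3 and 15.5 RPM (172, 251 and 166 reads). The lowest Setd1b cKO oocyte lay above the highest WT oocyte, so the genotypes did not overlap. The means were 41.8 ± 6.66 RPM (SD, n = 4) and 16.3 ± 2.78 RPM (SD, n = 3), a ratio of 2.57. On the scale of log2(RPM + 1) the fold change was 1.31 (95% interval 0.80 to 1.81, SE 0.23, limma adjusted p = 0.0101). A two-sided exact permutation test over the 35 arrangements of the libraries gave p = 0.0286, the smallest p they allow. This p restates the lack of overlap, which 20.3% of all transcripts tested showed, and adds no support. Of the 18179 transcripts tested, 673 had a larger fold change in the same direction. Without WT replicate 1, the library with the lowest Ash2l value, the fold change was 1.21 and the adjusted p rose to 0.0544, so that the call was lost. In the other alternatives, which include leaving out Setd1b cKO replicate 4 with WT replicate 3 (1.38, adjusted p = 0.00213), the call was kept. The direction of Ash2l was known from earlier results of these data and is no independent support.

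**Figure D1:**
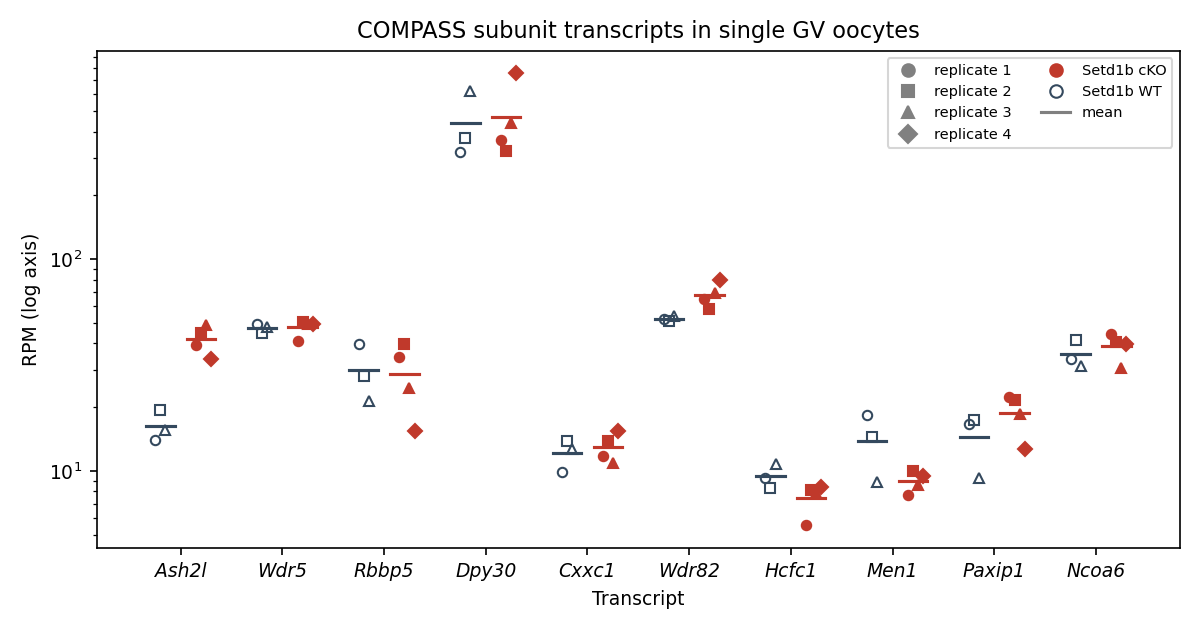
RPM (vertical log axis) of the 10 COMPASS subunit transcripts in each oocyte library, with filled red symbols for Setd1b cKO, open dark symbols for Setd1b WT, a symbol shape for each replicate number and a line at the mean. Ash2l at 33.8 to 49.1 RPM against 13.9 to 19.3 RPM and, by a smaller margin, Wdr82 at 57.9 to 79.3 RPM against 50.8 to 53.6 RPM are the transcripts whose genotypes do not overlap, while Dpy30 is highest in Setd1b cKO replicate 4 and WT replicate 3.

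Of the 10 subunits 1, Ash2l, passed the threshold, which asked for an adjusted p under 0.05 together with a difference of over 2-fold. In all 5.71% of the transcripts tested passed it in either direction, and 3.76% passed it as higher in the Setd1b cKO. An unadjusted p under 0.05 was found for 1 of the 10 subunits, against 21.7% of all transcripts. Setd1b cKO and WT values did not overlap for 2 of the 10, against 20.3% of all transcripts. All 10 passed the filter on low values. The counts for the set are near those of the whole table, so they show nothing particular to the subunits as a group. The median log2 fold change was 0.09 over the 10 subunits and 0.12 over all transcripts tested. Over all transcripts 683 were higher and 355 lower, and centring each library on its median gene made this 458 and 531 and moved the median of all transcripts to -0.03. Centring lowered the Ash2l fold change to 1.15 (adjusted p = 0.0150).

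**Figure D2:**
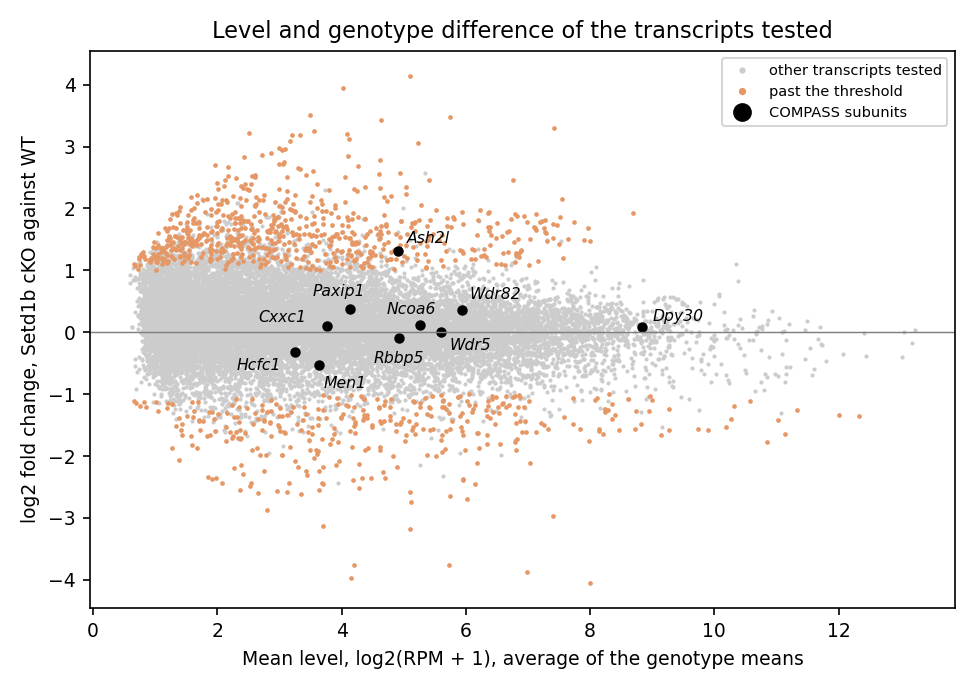
Log2 fold change of Setd1b cKO against WT (vertical) over the mean level in log2(RPM + 1) (horizontal) for the 18179 transcripts tested, with transcripts past the threshold in orange and the 10 COMPASS subunits as labelled black points. Ash2l lies among the orange points at 1.31, and the other subunits lie between -0.53 and 0.38, inside the grey cloud.

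The other core subunits did not pass the test. WDR5 is the propeller protein that holds the catalytic subunit and RBBP5 together. Its transcript (chr2:27515085-27536536, plus strand) stood at 41.2, 50.5, 49.6 and 49.6 RPM in replicates 1 to 4 of the Setd1b cKO. Replicates 1 to 3 of the WT were at 49.6, 44.7 and 47.6 RPM. Of the 10 subunits Wdr5 had the log2 fold change nearest 0, at 0.01 (95% interval -0.42 to 0.44, adjusted p = 0.988), and its sign changed with the scaling and with the libraries left out. An antisense transcript at its locus reached at most 1.51 RPM. The study made DNA libraries from amplified cDNA, and its methods describe no step that keeps the strand of the RNA. The reads of a transcript and of one overlapping it on the other strand therefore cannot be told apart by strand. This holds here and at Paxip1 and Kcnu1.

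RBBP5 is the scaffold that joins ASH2L to the catalytic subunit. Rbbp5 (chr1:132477107-132505665, plus strand) stood at 34.5, 39.7, 24.6 and 15.5 RPM in replicates 1 to 4 of the Setd1b cKO. The WT values were 39.9, 28.2 and 21.3 RPM. The lowest value of each genotype was in Setd1b cKO replicate 4 and WT replicate 3. The annotated Rbbp5 mRNA of 2856 bases is in neither length class given above, and the coefficient of variation was 37.5% and 31.5%. The log2 fold change was -0.10 (95% interval -0.84 to 0.65, adjusted p = 0.912), and it was 0.16 without Setd1b cKO replicate 4 and 0.13 without WT replicate 1.

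DPY30 is a small protein that docks on ASH2L as a dimer. Dpy30 (chr17:74299474-74316751, minus strand) stood at 365, 325, 440 and 754 RPM in replicates 1 to 4 of the Setd1b cKO. In the WT it was at 319, 371 and 624 RPM. The highest library of each genotype was the one with high values of short mRNAs, and the annotated Dpy30 mRNA of 789 bases is itself under 1 kb. The log2 fold change was 0.09 (95% interval -0.64 to 0.82, adjusted p = 0.920), and without Setd1b cKO replicate 4 it was -0.17. The genotypes overlapped for Wdr5, Rbbp5 and Dpy30 alike.

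Within a library, the ratio of Ash2l to another core subunit does not depend on the scaling to mapped reads. Ash2l to Wdr5 was 0.957, 0.889, 0.989 and 0.681 in Setd1b cKO replicates 1 to 4 and 0.281, 0.433 and 0.326 in WT replicates 1 to 3. The mean ratio was 0.879 ± 0.139 (SD, n = 4) and 0.346 ± 0.0781 (SD, n = 3), 2.54 times as high in the Setd1b cKO. The ratio to Rbbp5 ran from 1.13 to 2.18 in the Setd1b cKO and from 0.349 to 0.728 in the WT, again without overlap. The ratio to Dpy30 ran from 0.0448 to 0.138 and from 0.0249 to 0.0521. It overlapped, because the Setd1b cKO replicate 4 value of 0.0448 lay among those of the WT. These ratios share the Ash2l values and add no independent evidence.

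**Figure D3:**
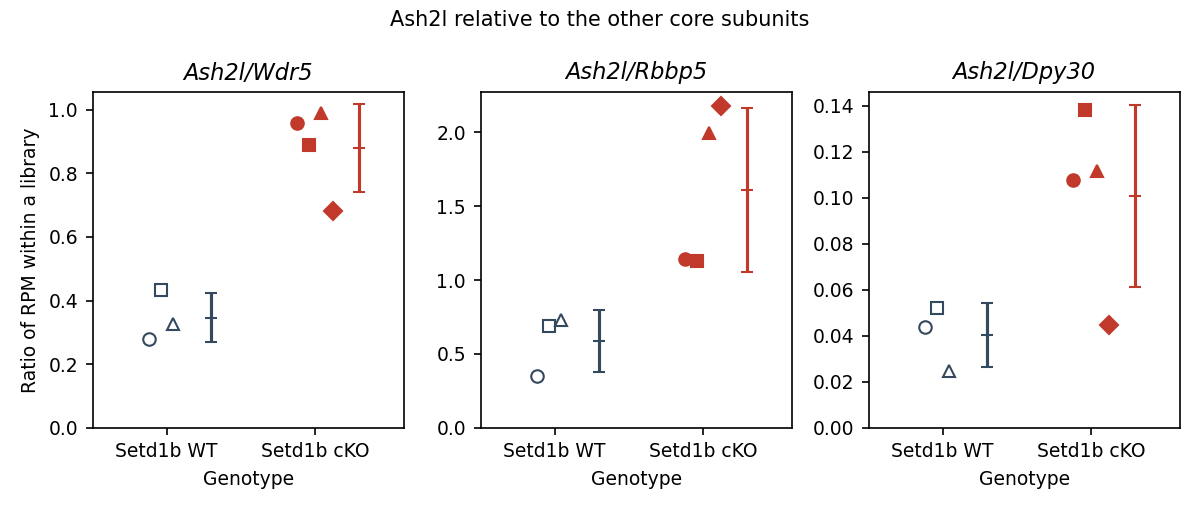
Ratio of Ash2l RPM to Wdr5, Rbbp5 and Dpy30 RPM within each library (vertical axes from 0) for Setd1b WT (open symbols, n = 3) and Setd1b cKO (filled symbols, n = 4), with a symbol shape for each replicate number and mean ± SD beside the points. The ratios to Wdr5 and Rbbp5 separate the genotypes, and for Dpy30 the Setd1b cKO replicate 4 diamond at 0.0448 lies within the WT range of 0.0249 to 0.0521.

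The subunits particular to SETD1 complexes were Cxxc1 and Wdr82. Cxxc1, whose product brings SETD1 to CpG islands, lies on chromosome 18 (74215679 to 74221533, plus strand). It stood at 11.8, 13.9, 10.9 and 15.5 RPM in replicates 1 to 4 of the Setd1b cKO and at 9.88, 13.8 and 12.7 RPM in WT replicates 1 to 3. The genotypes overlapped, with a log2 fold change of 0.09 (95% interval -0.45 to 0.64, adjusted p = 0.877) that was -0.06 after centring. Wdr82 (chr9:106170547-106193348, plus strand) stood at 64.8, 57.9, 69.3 and 79.3 RPM in replicates 1 to 4 of the Setd1b cKO. The WT values were 52.3, 50.8 and 53.6 RPM. Every Setd1b cKO library was above every WT library, yet the difference did not pass the test, at a log2 fold change of 0.36 (95% interval -0.08 to 0.80, adjusted p = 0.328). Over the alternatives the Wdr82 fold change stayed between 0.21 and 0.44 and was past the threshold in none of them.

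HCFC1 is a chromatin co-regulator of SETD1, MLL1 and MLL2 complexes. Hcfc1 (X chromosome, 73942792 to 73967865, minus strand) had the fewest reads of the set, 56 to 115 a library. It was at 5.54, 8.15, 7.84 and 8.39 RPM in the Setd1b cKO and at 9.31, 8.33 and 10.8 RPM in the WT, in order of replicate. The highest Setd1b cKO value lay just above the lowest WT value. The log2 fold change was -0.31 (95% interval -0.88 to 0.25, adjusted p = 0.542).

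Menin anchors MLL1 and MLL2 complexes to chromatin. Men1 (chr19:6334979-6340895, plus strand) stood at 7.72, 10.05, 8.62 and 9.44 RPM in replicates 1 to 4 of the Setd1b cKO. Replicates 1 to 3 of the WT were at 18.5, 14.4 and 8.89 RPM. WT replicates 1 and 2 were above every Setd1b cKO library, and WT replicate 3 lay among them. The log2 fold change of -0.53 was the lowest of the set, with a 95% interval of -1.16 to 0.09 (adjusted p = 0.308), so that a decrease of over 2-fold was inside the interval.

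The subunits of MLL3 and MLL4 complexes were Paxip1, which codes for the BRCT domain protein PTIP, and Ncoa6, a nuclear receptor coactivator. Paxip1 (chr5:27740667-27791676, minus strand) was at 22.4, 21.6, 18.6 and 12.7 RPM in the Setd1b cKO and at 16.7, 17.3 and 9.26 RPM in the WT, in order of replicate. As with Rbbp5, the lowest values of both genotypes were in Setd1b cKO replicate 4 and WT replicate 3. Its log2 fold change was 0.38 (95% interval -0.28 to 1.03, adjusted p = 0.519). A transcript overlapping Paxip1 on the other strand reached at most 3.13 RPM. Ncoa6 (chr2:155390615-155473894, minus strand) was at 44.5, 40.4, 30.6 and 39.6 RPM in the Setd1b cKO and at 33.6, 41.5 and 31.4 RPM in the WT. The Ncoa6 genotypes overlapped, with a log2 fold change of 0.12 (95% interval -0.37 to 0.61, adjusted p = 0.813). Of the 9 subunits other than Ash2l, 6 had a positive and 3 a negative fold change, and in 7 the 95% interval lay inside 2-fold in both directions. Men1 and Paxip1 were the exceptions.

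Per kilobase of the annotated principal mRNA, which allows levels of different genes to be compared, the order in the WT was led by Dpy30. Mean levels in the WT were 555 RPM per kb for Dpy30, 16.4 for Wdr5, 13.9 for Wdr82 and 10.4 for Rbbp5. Below these, Ncoa6 at 5.004 RPM per kb, Ash2l at 4.92, Men1 at 4.68 and Cxxc1 at 4.63 overlapped each other between libraries. Paxip1 at 2.47 and Hcfc1 at 1.16 RPM per kb were the lowest. In the Setd1b cKO, Ash2l at a mean of 12.6 RPM per kb stood above Rbbp5 at 10.01 and below Wdr5 at 16.5, with overlapping libraries on both sides. The remaining Setd1b cKO means were 597 RPM per kb for Dpy30, 18.1 for Wdr82, 5.47 for Ncoa6, 4.97 for Cxxc1, 3.22 for Paxip1, 3.01 for Men1 and 0.919 for Hcfc1. Of the 4 core subunits summed per kb, Ash2l made up 1.03% to 2.97% in the Setd1b cKO and 0.573% to 1.17% in the WT, and Dpy30 at least 90.2% in every library. With the 2337 bases of the isoform that starts at the oocyte 5′ end, Ash2l would be at 17.9 RPM per kb in the Setd1b cKO and 6.96 in the WT. Its mean would then lie above that of Wdr5 in the Setd1b cKO and above that of Ncoa6 in the WT. The place of Ash2l in the order therefore depends on the isoform. These levels rest on annotated and not on measured mRNA ends.

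Of the 6 catalytic subunits, 5 passed the filter on low values and none of these passed the threshold in limma, with 1 at an unadjusted p under 0.05 (Setd1a), against 5.71% and 21.7% of all transcripts tested. Setd1a stood at 53.7, 49.5, 51.8 and 28.7 RPM in replicates 1 to 4 of the Setd1b cKO and at 84.7, 63.5 and 64.4 RPM in the WT, without overlap (log2 fold change -0.64, 95% interval -1.22 to -0.07, adjusted p = 0.1798). Kmt2b, which codes for MLL2, was at 25.0 to 28.8 RPM in the Setd1b cKO and 32.4 to 38.0 RPM in the WT, also without overlap (-0.38, adjusted p = 0.305). The Kmt2b row began 14170 bases upstream of the annotated gene, so it may hold reads from outside that gene. Kmt2c (0.39, adjusted p = 0.331) and Kmt2d (-0.22, adjusted p = 0.716), for MLL3 and MLL4, and Setd1b itself (-0.61, adjusted p = 0.533) overlapped. Kmt2a, for MLL1, was at most 0.324 RPM in any library and was not tested.

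Further subunits of the complexes gave no transcript past the threshold in limma among 6 tested, with 2 at an unadjusted p under 0.05, against 5.71% and 21.7% of all transcripts tested. Counts in so short a list show nothing particular to it. Bod1l, for a partner of SETD1 at replication forks, was at 67.2, 68.1, 62.8 and 57.6 RPM in the Setd1b cKO and at 98.4, 103.9 and 103.9 RPM in the WT, without overlap. Its log2 fold change was -0.67 (95% interval -1.08 to -0.26, adjusted p = 0.0625). Psip1, for the chromatin reader LEDGF that binds menin and MLL, was at 48.8 to 93.9 RPM in the Setd1b cKO and 92.6 to 151 RPM in the WT (-0.69, adjusted p = 0.164), and it was matched by position, with another transcript at its locus that reached 36.9 RPM. Kdm6a, the H3K27 demethylase (UTX) of MLL3 and MLL4 complexes, was at 40.3 to 46.0 RPM against 48.3 to 72.5 RPM (-0.41, adjusted p = 0.302). Hcfc2, a paralog of Hcfc1, was at 4.61 to 11.7 RPM against 4.05 to 5.78 RPM (0.69, adjusted p = 0.245). Pagr1a was listed too and had no matching row.

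**Figure D4:**
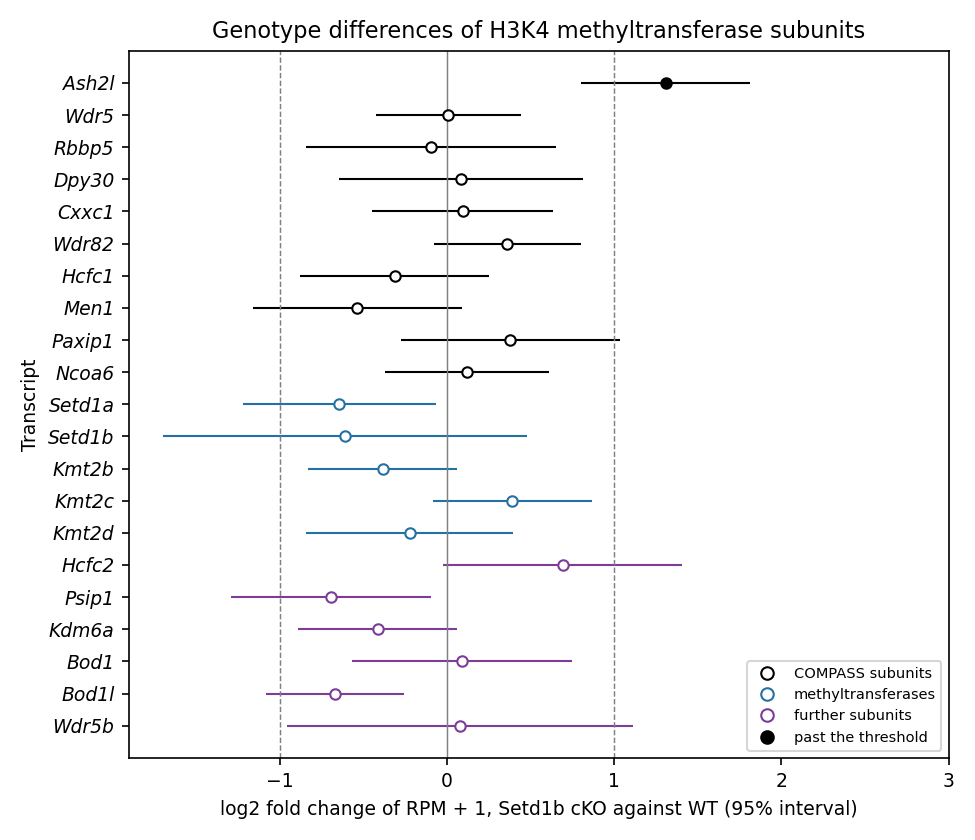
Log2 fold change of RPM + 1 between Setd1b cKO (n = 4) and WT (n = 3) with its 95% interval for the 10 COMPASS subunits (black), 5 catalytic subunits (blue) and 6 further subunits (purple), with dashed lines at a 2-fold change. The filled point of Ash2l at 1.31 is past the threshold, and the intervals of Setd1a, Psip1 and Bod1l lie below 0 without passing it.

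WDR5 and HCFC1 also belong to the NSL histone acetyltransferase complex, and WDR82 to the PNUTS phosphatase complex. Of 11 transcripts of these complexes 1 passed the threshold, and it was lower. With 5.71% of all transcripts past it in either direction, 1 of 11 is no result about these complexes. Phf20, for the methyl-lysine reader of the NSL complex, stood at 162, 185, 198 and 147 RPM in replicates 1 to 4 of the Setd1b cKO and at 408, 342 and 356 RPM in the WT (log2 fold change -1.09, 95% interval -1.54 to -0.65, adjusted p = 0.0121). The genotypes did not overlap. Ppp1r10, for PNUTS itself, had a log2 fold change of -0.33 (adjusted p = 0.469), and Tox4 one of 0.30 (adjusted p = 0.539). Tox4 was matched to its row by position, and other transcripts at its locus reached 41.9 RPM, above its own 14.5 to 26.8 RPM. Ppp1ca, a catalytic subunit of the phosphatase, was at 0.25 (adjusted p = 0.590), with another transcript at its locus at up to 14.98 RPM. Ogt, the GlcNAc transferase that modifies HCFC1, was at -0.33 (adjusted p = 0.606). The median log2 fold change was -0.38 over the catalytic subunits tested, -0.17 over the further subunits and 0.15 over the NSL and PNUTS transcripts, against 0.12 over all transcripts. The 5 catalytic transcripts tested include Setd1b itself, and all have annotated mRNAs over 5 kb. The part of mRNA length in these medians was not tested.

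The transcripts whose log2(RPM + 1) resembled that of Ash2l most over the 7 libraries, among 6723 with a symbol and a mean of at least 8 RPM, were Akr1c19, Fbp2, Bnip3l, Dbt and Cdc16. Their Pearson correlations with Ash2l were 0.988, 0.985, 0.983, 0.982 and 0.981. The libraries fall into the 2 genotypes and share depth and scaling, so any transcript that separates them scores high, and the values are a description. Akr1c19 was at 8.39 to 18.0 RPM in the Setd1b cKO and 1.54 to 2.62 RPM in the WT. Bnip3l differed far less, with 365 to 430 RPM against 282 to 295 RPM. Among the subunits the correlation with Ash2l was 0.70 for Wdr82, 0.57 for Paxip1, 0.28 for Ncoa6, 0.22 for Cxxc1 and 0.01 for Wdr5. It was -0.03 for Dpy30 and for Rbbp5, -0.65 for Hcfc1 and -0.67 for Men1.

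The surroundings of the subunit genes were examined last. Within 20 kb of the 10 transcripts the table held 27 others, of which 19 were tested and 2 passed the threshold, 1 higher and 1 lower, against 5.71% of all transcripts. The count is too small to set the neighbours apart. The higher transcript lay 3431 bases upstream of the Ash2l 5′ end (chr8:25851127-25852503) and is placed on the strand of Ash2l in the transcript set. It lies inside the gene Kcnu1, which runs on the opposite strand, and it was singled out after its values were seen. It stood at 1.88, 2.64, 2.70 and 2.68 RPM in replicates 1 to 4 of the Setd1b cKO, from 19 to 32 reads. Replicates 1 to 3 of the WT were at 0.243, 0.231 and 0.0936 RPM, from 1 to 3 reads, which is at the level that a count of 0 allows. The ratio of the pooled reads was 12.8 (95% interval 5.98 to 32.5, counting error alone). That interval leaves out the spread between oocytes, so it is no test of the genotypes. This transcript passed the filter on low values through the Setd1b cKO alone, so it could be tested only because it was high there. Its call is given no weight. The next transcript upstream, 5663 bases from Ash2l, was at 0.297 to 4.66 RPM in the Setd1b cKO and 0.405 to 1.22 RPM in the WT and did not pass (adjusted p = 0.422). Lsm1, which ends 684 bases beyond the 3′ end of Ash2l on the other strand, was at 38.5 to 134 RPM against 23.8 to 71.5 RPM and did not pass either (0.59, adjusted p = 0.507). The lower transcript was Dstyk, 10148 bases upstream of Rbbp5, at 15.5 to 25.5 RPM in the Setd1b cKO and 37.5 to 55.6 RPM in the WT (-1.13, adjusted p = 0.0256). Rbbp5 itself did not pass the test.

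**Figure D5:**
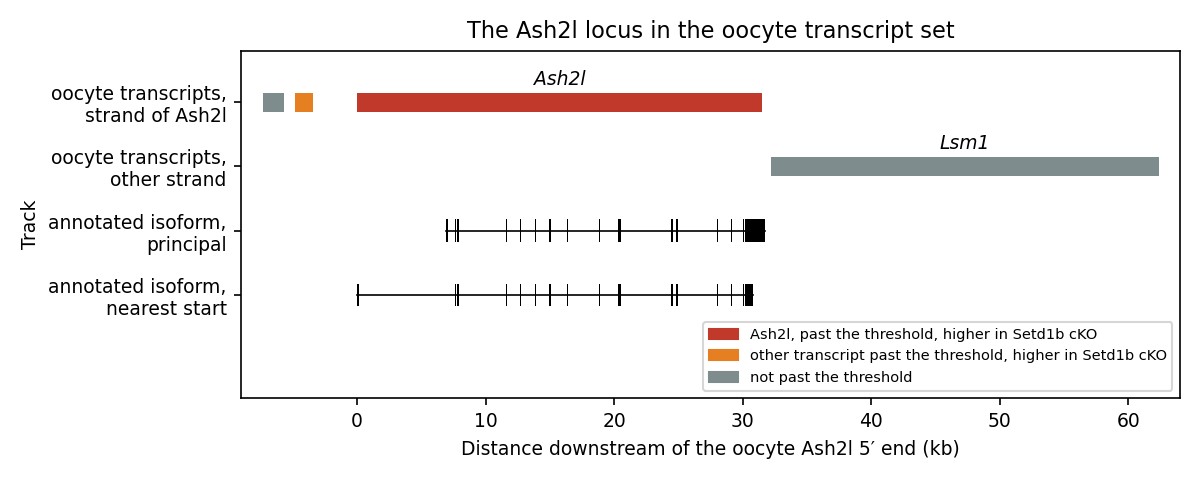
The Ash2l locus drawn to scale in kb downstream of the oocyte Ash2l 5′ end, with the oocyte transcripts of the table on either strand and the exons of the annotated principal isoform and of the isoform whose start is nearest. The oocyte transcript begins 2 bases from the longer-spanning isoform, and the orange transcript 3431 bases upstream is the other one past the threshold, with 1 to 3 reads in each WT library. The orange transcript passed the filter on low values through the Setd1b cKO alone, and its call is given no weight.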

How the data were processed

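Single GV oocytes were amplified by the authors with the SMARTer Ultra Low kit, and reads were trimmed, mapped with Hisat to GRCm38, filtered on mapping quality and quantitated in SeqMonk over predefined oocyte transcripts with merged isoforms. The deposited values are log2 RPM, with 0.9 read in place of 0 reads. The counting strand is not given in the sources used here. For every library the values were whole reads for 100% of transcripts (tolerance 0.1 read).

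The study used a count model. As the deposited unit is log2, log2(RPM + 1) was tested with lmFit and eBayes with trend (limma 3.58.1, R 4.3.3), over transcripts that reached 1 RPM in 3 or more libraries and with Benjamini-Hochberg adjustment over all 18179, and the recovered reads with voom as an alternative. Genotypes were not paired. All members were named. Catalytic subunits were named too, and of the further lists up to 5 genes, those past the threshold first and then those of smallest p. The members and lists were chosen with earlier results of these data known. Code was tested on simulated data. Figures used matplotlib 3.10.9.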

Additional observations from a re-analysis of the deposited data

Results flagged for a closer look

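Within the 4 Setd1b cKO libraries, 5 of 36 named transcripts and ratios held a library far from the other 3 by Dixon's test, against 1.8 that chance would give. For Wdr5 the Setd1b cKO replicate 1 value of 41.2 RPM lay below 49.6 to 50.5 RPM (a gap of 0.908 of the range). For the transcript upstream of Ash2l it was again replicate 1, at 1.88 RPM below 2.64 to 2.70 RPM (0.922). In the other 3 it was replicate 4, for Setd1a at 28.7 RPM below 49.5 to 53.7 RPM (0.831), for Kmt2c at 144 RPM below 178 to 184 RPM (0.840) and for Kmt2d at 108 RPM below 211 to 229 RPM (0.853). Setd1b cKO replicate 4 is the library with low values of long mRNAs, and the part of this in these 3 values was not tested.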

How the results depend on the processing

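Ash2l kept its direction under 20 alternatives and its call under 19 of them, with log2 fold changes of 1.13 to 1.43 and adjusted p of 0.0019 to 0.0544. With each library left out in turn it ran from 1.21 to 1.43, and without WT replicate 1 (1.21) the call was lost. The number of subunits past the threshold then ran from 0 to 1 and was 1 under all other alternatives. Wdr82, Hcfc1, Men1 and Paxip1 kept their direction, but single libraries moved their size. Left out in turn they gave 0.28 to 0.43 for Wdr82, -0.39 to -0.19 for Hcfc1 (-0.19 without Setd1b cKO replicate 1), -0.80 to -0.32 for Men1 (-0.32 without WT replicate 1, and -0.80, adjusted p = 0.134, without WT replicate 3) and 0.11 to 0.55 for Paxip1 (0.11 without WT replicate 3). No subunit but Ash2l passed under any alternative. Wdr5 turned negative after centring on the median gene (-0.15), with library quality weights (-0.0022) and without Setd1b cKO replicate 4 and WT replicate 3 together (-0.0063), an alternative added after the data had been seen, as did Dpy30 (-0.0701), Cxxc1 (-0.0614) and Ncoa6 (-0.0343) after centring and Cxxc1 (-0.0348) with quantile normalisation. With a library left out, Wdr5 ran from -0.0308 to 0.0766, Rbbp5 from -0.31 to 0.16, Dpy30 from -0.17 to 0.37, Cxxc1 from -0.0356 to 0.186 and Ncoa6 from 0.0404 to 0.236. The causes were not tested. Same-numbered libraries correlated at 0.19, 0.29 and -0.13 in their deviations, with 1 of the 3 under 0.1, so the numbers were not taken to pair the oocytes. Among Setd1b cKO replicates 1 to 3 (replicate 4 has no WT number and was left out), WT replicates 2 and 3 correlated best with their own number, the latter at the negative -0.13, and WT replicate 1 with replicate 2. With a replicate block over replicates 1 to 3, which drops Setd1b cKO replicate 4, Ash2l was at 1.40 (adjusted p = 0.00561) and Wdr5 at -0.0114, Rbbp5 at 0.16 and Dpy30 at -0.17 had the opposite sign. Over all transcripts the block gave 907 higher and 476 lower. Other counts over all transcripts ran from 171 higher and 109 lower (without WT replicate 2) to 1197 and 554 (quality weights). Summing rows of a gene was not run, as each subunit had 1 row. Depth limits Hcfc1 most, with 56 to 115 reads.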
